A study of Mus musculus with 12 samples.

Results

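The genes described here encode the extracellular proteases of the MMP, ADAM and ADAMTS families, the plasminogen activators, and the TIMP, Reck and serpin proteins that restrain such enzymes. They were taken by symbol (Mmp, Adam, Adamts, Adamtsl, Timp and Serpin genes, with Plau, Plat, Plaur and Reck) and kept where TPM, a level per transcript length and library total that sums to the same value in every library, reached 1 in at least 3 of 12 libraries. This gave 62 genes of the 13076 measured at that level. Of 152 family genes matched to the deposited transcripts, 90 were not kept, and 56 of those were listed at 0 in every library. The only gene at exactly 3 libraries was Serpinb6d, and none stood at exactly 2; Serpina6, Adam11, Adamts9 and Mmp24 reached 1 TPM in 1 library each, with highest values of 1.41, 1.25, 1.21 and 1.02.

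The libraries came from C2C12 cells, an established mouse myoblast line that exits the cell cycle and forms multinucleate myotubes when serum is lowered. Polyadenylated RNA was sequenced from 4 groups of 3 libraries, which crossed a day (D0 or D2) with a small interfering RNA (a control, siControl, or one against Kctd10, siKctd10). D0 cells were subconfluent in medium with 10% fetal bovine serum and were harvested 48 h after the siRNA. D2 cells were moved to 2% horse serum 24 h after the siRNA and harvested 48 h later, so that day, serum, culture density and the time since the siRNA cannot be told apart. Kctd10 encodes a substrate adaptor of cullin-RING ubiquitin ligases. No group was left without siRNA, and a single label names the siRNA against Kctd10, so an effect of losing Kctd10 and an effect of that siRNA by itself cannot be told apart. The labels call the libraries triplicates without naming separate cultures, so the p-values here measure only the spread between these samples.

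Matrix metalloproteinases (MMP) cut collagens, laminins and other matrix proteins; the membrane-type enzymes sit at the cell surface, and Mmp14 there activates the secreted gelatinase Mmp2 with Timp2 as adaptor. ADAM proteases are membrane anchored and shed the outer parts of other surface proteins, while ADAMTS proteases are secreted and include enzymes that cut versican, a large proteoglycan of the coat around myoblasts. Serpins trap serine proteases, among them the plasminogen activators urokinase (Plau) and tissue-type activator (Plat); matrix turnover by these systems accompanies myoblast migration and fusion.

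The catalytic members share a zinc site. They were chosen by symbol, and these family names go with the encoded protein domains, so the site describes the families and is no separate result. The histidines of the metzincin zinc-binding motif hold the catalytic zinc, and 33-base coding stretches for it, in a standard or a variant form, were found by translating GENCODE vM21 coding sequences (GRCm38). The stretch occurred in 28 of the 34 metalloproteinase-family members, against 74 of 21901 coding genes. It was present in 5 of 5 secreted MMP, 3 of 3 membrane-type MMP, 8 of 9 ADAM and 12 of 12 ADAMTS genes. It was found in 0 of 5 ADAMTSL genes, whose proteins resemble ADAMTS enzymes without their protease domain, and Adam4 was the ADAM gene in which it was not found. The 7 stretches below belong to enzymes that the comparisons turn on, and the capitals mark the 3 histidine codons. They lie at chr8:92839279-92839311 in exon 8 of Mmp2, chr14:54437627-54437659 in exon 5 of Mmp14, chr8:95368585-95368617 in exon 5 of Mmp15 and chr11:46125050-46125082 in exon 11 of Adam19, all on the plus strand. The other 3 cross an intron and lie between chr16:85878015-85887826 for Adamts5 (minus strand, exons 2 and 3), chr1:171253210-171253915 for Adamts4 (plus strand, exons 3 and 4) and chr9:30911255-30911690 for Adamts15 (minus strand, exons 2 and 3). Adamts4 and Adamts15 carry the variant form, as does Adamts1.
Mmp2: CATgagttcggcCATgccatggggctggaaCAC
Mmp14: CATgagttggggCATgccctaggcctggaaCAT
Mmp15: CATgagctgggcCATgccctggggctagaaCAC
Adam19: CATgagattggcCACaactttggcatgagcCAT
Adamts5: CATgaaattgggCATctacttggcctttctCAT
Adamts4: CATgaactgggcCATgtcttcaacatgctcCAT
Adamts15: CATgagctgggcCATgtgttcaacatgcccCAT

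RefSeq promoters (GRCm38.p6, 250 bases before to 50 after a start) were matched for 43 of the 62 members and searched on both strands for the AP-1 motif TGANTCA, the E-box CANNTG bound by factors such as MyoD, and the TEAD motif GGAATG. AP-1 letters occurred in 5 members (11.6%, against 7.81% of 32851 promoters), an E-box in 28 (65.1% against 72.3%) and TEAD letters in 5 (11.6% against 14.7%). These matches describe letters and not bound sites. The 250 bases before the start are printed for the member with the largest log2 rise with differentiation in siControl cells (Mmp15, chr8:95352046-95352295, plus strand, E-boxes in capitals), the member with the largest fall in both arms (Serpinb2, chr1:107511260-107511509, plus strand, AP-1 letters in capitals) and Adam19 (chr11:46055734-46055983, plus strand), in which an E-box that overlaps AP-1 letters and a TEAD match on the minus strand are in capitals. The Serpinb2 start used by RefSeq is 3870 bases from that of the deposited transcript with most of its signal.
Mmp15: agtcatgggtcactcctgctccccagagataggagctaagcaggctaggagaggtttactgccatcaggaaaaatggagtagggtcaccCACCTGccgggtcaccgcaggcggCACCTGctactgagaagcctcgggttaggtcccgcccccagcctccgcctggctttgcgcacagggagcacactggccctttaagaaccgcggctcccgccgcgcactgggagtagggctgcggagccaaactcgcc
Serpinb2: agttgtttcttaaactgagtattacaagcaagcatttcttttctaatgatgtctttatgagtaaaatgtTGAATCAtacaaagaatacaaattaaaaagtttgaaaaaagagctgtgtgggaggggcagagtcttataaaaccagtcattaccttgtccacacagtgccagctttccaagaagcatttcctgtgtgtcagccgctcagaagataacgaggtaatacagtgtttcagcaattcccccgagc
Adam19: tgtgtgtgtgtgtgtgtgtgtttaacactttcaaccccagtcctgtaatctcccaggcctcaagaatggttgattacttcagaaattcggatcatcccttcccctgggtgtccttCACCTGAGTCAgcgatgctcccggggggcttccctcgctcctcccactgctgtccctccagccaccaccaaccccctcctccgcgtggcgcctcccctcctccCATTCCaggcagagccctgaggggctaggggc

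Depth estimated from the deposited coverage was 12.51 to 18.08 M read pairs per library, and 12023 to 12604 genes reached 1 TPM. Kctd10 stood at 257.9 to 271.7 TPM in D0 siControl and 19.97 to 24.8 in D0 siKctd10, and at 275.9 to 289.0 in D2 siControl and 26.8 to 35.1 in D2 siKctd10. The summed level of 10 myoblast and myocyte markers was 617 to 650 TPM in D0 siControl, 727 to 814 in D0 siKctd10, 3824 to 4168 in D2 siControl and 2679 to 3162 in D2 siKctd10. Sums stayed at or below 4.25 TPM for the leukocyte list (2 of 7 markers kept), 1.65 for endothelial (0 of 4) and 3.15 for epithelial (1 of 4), 0.494 for osteoblast and chondrocyte (0 of 6), and the 4 adipocyte markers were listed at 0. Of the fibroblast list 4 of 4 were kept, with sums of 1137 to 1237 TPM in D0 siControl, 1056 to 1351 in D0 siKctd10, 2937 to 4127 in D2 siControl and 3113 to 3315 in D2 siKctd10. Of the neural list 2 of 4 were kept, at 121 to 133, 71.7 to 76.8, 133 to 154 and 109 to 127 TPM in the same order. On the second principal component, both siKctd10 libraries numbered 3 lay at -42.4, against -1.17 to -20.3 for the other 4 siKctd10 libraries, so counts are also given without them.

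Most of what was measured on these genes lay in their last exons. For the transcript that carried most of each member, deposited coverage was compared exon by exon after scaling to 10 M read pairs. Among 61 members with several exons, 320 of 712 exons before the last (44.9%) were listed at 0 in all 12 libraries, and the median member had 77.3% of its coverage in the last exon. That share exceeded 50% for 41 members and 95% for 13, and 7 had coverage in the last exon only (Adamts10, Serpinb1b, Serpinb1c, Serpinb6c, Serpinb6d, Serpinb6e and Serpinb9g). The levels below therefore describe the 3' end of most members, and 43 of the 62 have several or overlapping transcripts, between which the assignment of reads is uncertain. In 11 members the highest library of some group exceeded the lowest more than 3-fold: Mmp28, Adam9, Adam17, Adamts14, Timp1, Plau, Plaur, Serpinb6a, Serpinb6b, Serpinb6c and Serpinb6e.

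For several of these members the last exon was present in some libraries and nearly missing from others of the same group, while the other exons were covered in both. Plau had last-exon coverage of 487 and 484 in D2 siKctd10 libraries 1 and 2 and 0.787 in library 3, with 316, 193 and 163 over its other exons. Adam9, a widely expressed sheddase, had 314, 318 and 319 in D0 siControl library 2 and D2 siKctd10 libraries 2 and 3, and at most 1.26 in the other 9. Timp1, a secreted inhibitor of many MMP, had 1433 and 1587 in D0 siControl library 3 and D2 siControl library 2, and at most 3.04 elsewhere. The same held for Adam17, the tumour necrosis factor sheddase (98.9 in D0 siKctd10 library 2, at most 1.59 elsewhere). For Adamts14, a procollagen N-proteinase, it was 0.419 in D0 siKctd10 library 1 and 45.1 to 76.0 in the others. Serpinb6a reached 1108 and 1320 in D2 siControl libraries 2 and 3 and at most 1.39 elsewhere. Plaur, the urokinase receptor, ranged from 0.0175 to 188. None of these 7 passed the test in any comparison. What moved the last exon was not tested.

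**Figure D1:**
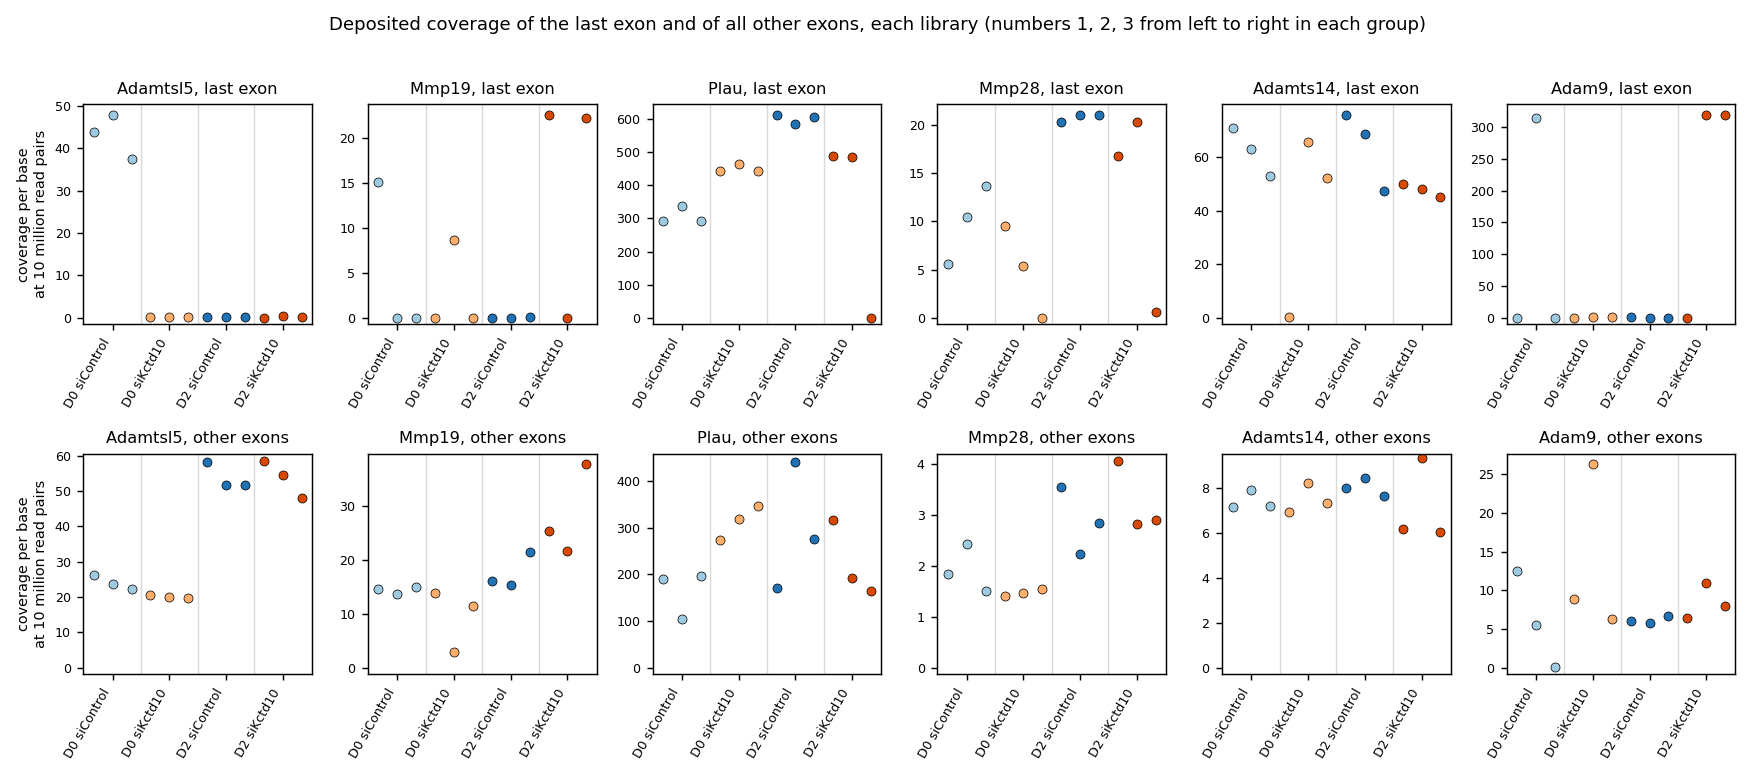
Deposited coverage per base, scaled to 10 M read pairs (linear vertical axes that differ between panels), of the last exon (upper row) and of all other exons together (lower row) for 6 members; each point is 1 library. The last exon of Adamtsl5 is covered in the 3 D0 siControl libraries (37.5 to 47.9) and nearly absent from the other 9, and that of Plau is nearly absent from D2 siKctd10 library 3 alone.

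Differentiation was examined first, as D2 against D0 in siControl cells. With limma on log2(TPM + 1) over all 13076 genes and Benjamini-Hochberg adjustment, 32 of the 62 members (51.6%) passed an adjusted p of 0.05, 27 (43.5%) higher and 5 (8.06%) lower at D2. Among all genes 35.5% passed, 21.4% higher and 14% lower; at an unadjusted p of 0.05, 35 members passed. The groups did not overlap for 38 members (32 higher, 6 lower), where the same held for 52.3% of all genes (30.8% higher, 21.6% lower). The share of members called was above that of all genes for higher levels and below it for lower levels. Members below 1 TPM in every D0 library were kept through D2 alone, so they had room to rise and little to fall. The same rule was applied to all genes. The members' median log2 difference was 0.47, against 0.09 over all genes. In siKctd10 cells 31 members passed, 28 higher and 3 lower, against 36.4% of all genes (23.1% higher, 13.3% lower), with 34 at an unadjusted p of 0.05; 38 members did not overlap (32 higher, 6 lower), against 48.4% (30.3% higher, 18.1% lower). The median there was 0.65 against 0.12. Most of the protease families thus had more members higher than lower at D2 in both arms. The summed myocyte markers and the summed fibroblast markers were both higher at D2 in each arm, as given above. Col3a1, also a matrix substrate, made up most of the fibroblast sum and passed in both arms. Pdgfra and Ly6a did not pass in siControl (limma adjusted p = 0.075 and 0.28), nor Dpt and Ly6a in siKctd10 (0.14 and 0.13). The part of these markers in the differences was not tested. In bulk RNA a change in the share of cells of a type and a change in RNA per cell cannot be told apart.

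**Figure D2:**
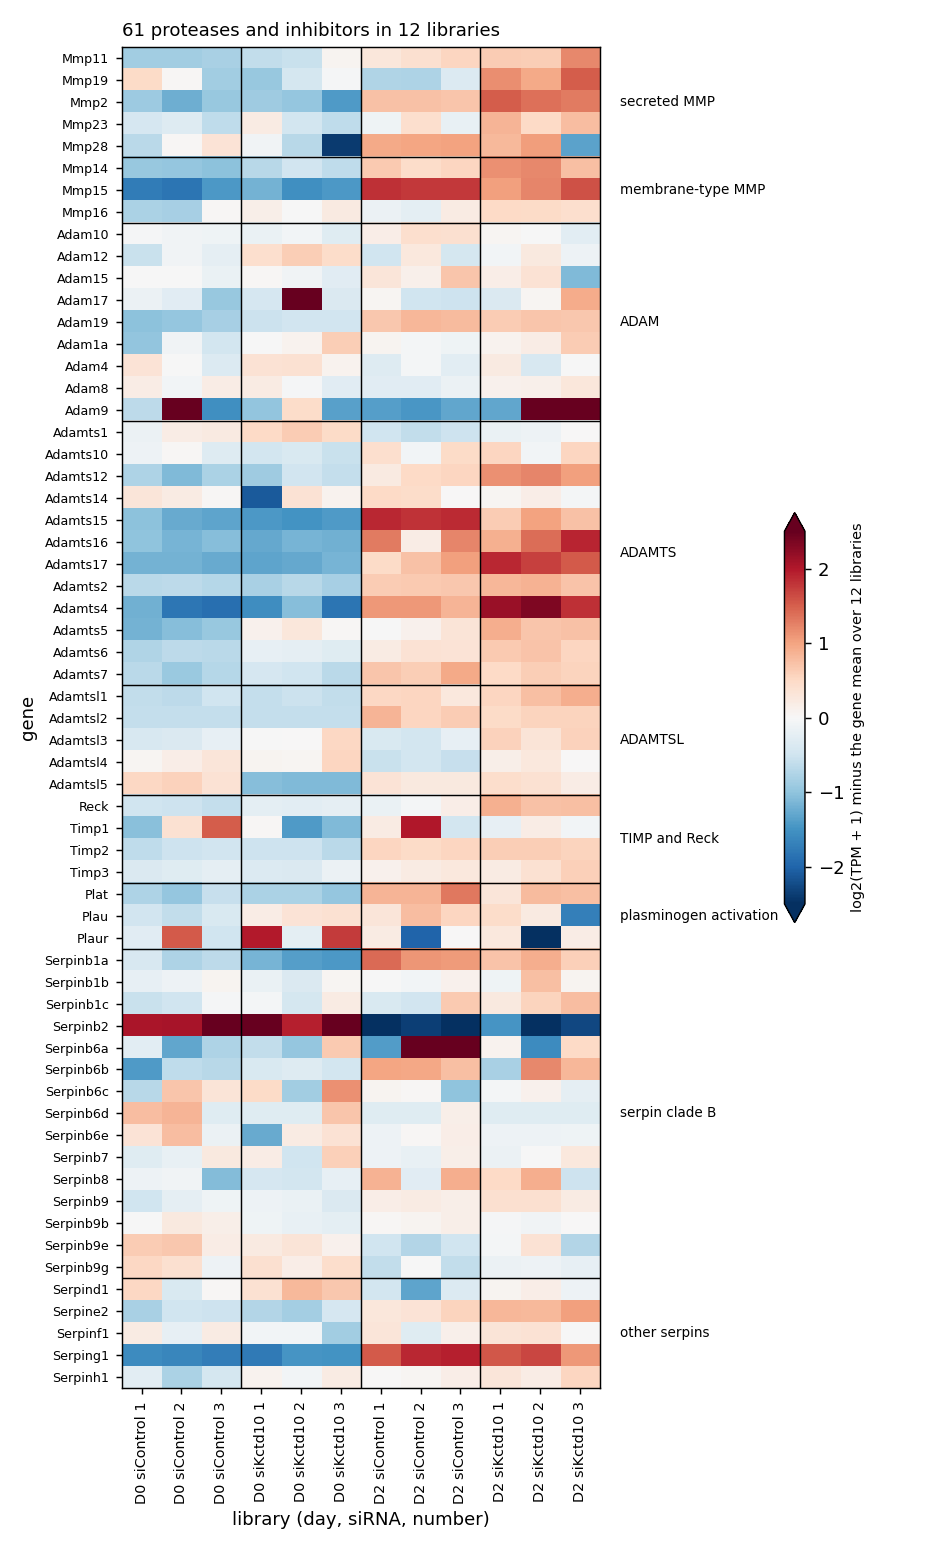
For 61 members, log2(TPM + 1) in every library relative to the gene's mean over the 12 libraries, in columns by group and rows by family, with colours ending at 2.5 in either direction. The rise of Mmp2, Mmp14, Mmp15, Adamts4, Adamts15 and Serping1 and the fall of Serpinb2 at D2 are seen in all 6 libraries of that day.

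Among secreted MMP, 2 of 5 rose in siControl cells and 4 of 5 in siKctd10 cells. Mmp2, gelatinase A, was at 76.9, 61.8 and 74.4 TPM in D0 siControl and 242, 240 and 233 in D2 siControl, a log2 difference of 1.74 ± 0.14 (SE; limma, adjusted p = 7.4e-06). In siKctd10 it went from 77.7, 73.6 and 53.5 to 416, 376 and 357, a difference of 2.49 ± 0.14 (adjusted p = 9.2e-07). Neither pair of groups overlapped, and Mmp2 has a single annotated transcript, in which every covered exon was higher at D2. Mmp11, stromelysin-3, rose from 69.0, 69.3 and 72.4 TPM to 156, 168 and 187 (1.26 ± 0.20, adjusted p = 0.00076) and by 1.19 ± 0.20 in siKctd10. Mmp19 was called in siKctd10 cells (1.67 ± 0.35, adjusted p = 0.004) and stood at 18.6, 13.3 and 6.68 then 7.32, 7.24 and 10.1 TPM in siControl. Mmp23 rose in siKctd10 cells but never exceeded 1.80 TPM. Mmp28, epilysin, had D2 siControl values of 16.7, 17.3 and 17.6 TPM against 4.78, 8.39 and 10.6 at D0 and did not pass (adjusted p = 0.26). Mmp9, the other gelatinase, did not reach the minimum, with a highest value of 0.540 TPM.

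The membrane-type enzymes included the largest rise in siControl cells; in siKctd10 cells that of Adamts4 was larger (3.59 ± 0.24). Mmp15 (chr8:95352268-95375080, plus strand) was at 2.15, 1.99 and 2.91 TPM in D0 siControl and 36.5, 35.1 and 35.2 at D2, a log2 difference of 3.46 ± 0.17 (limma, adjusted p = 3.3e-07). In siKctd10 cells it rose by 2.66 ± 0.17, from 3.70, 2.66 and 2.94 to 20.7, 23.6 and 30.9. The sequence of its promoter, with E-boxes at -161 and -137, and of its zinc site is given above. Mmp14 (chr14:54431612-54445364, plus strand) rose from 254, 251 and 242 to 773, 677 and 710 (1.53 ± 0.11, adjusted p = 5e-06) and by 1.64 ± 0.11 in siKctd10. It thus remained the most abundant MMP in every library. Mmp16, also membrane bound, stayed between 1.503 and 5.27 TPM and did not pass in either arm.

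Of 9 ADAM genes, 2 rose in siControl cells and 1 in siKctd10 cells. Adam19, meltrin beta, was at 29.4, 30.5 and 33.5 TPM in D0 siControl and 97.1, 108 and 105 at D2 (1.70 ± 0.08, limma adjusted p = 1.9e-07), and rose by 1.16 ± 0.08 in siKctd10; all 18 covered exons were higher at D2 in each arm. Adam10, the main Notch sheddase, went from 185, 177 and 176 to 211, 254 and 249 TPM (0.40 ± 0.11, adjusted p = 0.015) and did not pass in siKctd10 (adjusted p = 0.48). The Adam10 difference was 0.01 over exons before the last and 0.34 in the last exon. Adam12, meltrin alpha, studied for its part in myoblast fusion, was at 4.42, 6.41 and 5.80 TPM at D0 and 4.62, 8.49 and 4.85 at D2 in siControl and did not pass. Adam17 values of 9.83, 8.89 and 5.22 against 11.3, 7.47 and 7.40 overlapped. In D0 siKctd10 Adam17 was listed at 7.97, 66.3 and 8.37, the middle one being the library with last-exon coverage, and at D2 at 8.32, 11.4 and 21.8.

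The ADAMTS proteases were called with 9 of 12 higher and 1 lower in siControl cells (median log2 difference 1.32) and 10 higher and 1 lower in siKctd10 cells (1.34). Of these, Adamts15, Adamts16 and Adamts17 were below 1 TPM in D0 siControl and met the minimum through other groups. Their higher calls thus partly follow from that rule. Adamts15, a versican-cleaving enzyme, was at 0.488, 0.266 and 0.225 TPM in D0 siControl and 10.2, 9.69 and 10.1 at D2 (3.05 ± 0.13, limma adjusted p = 1.1e-07). Adamts4, an aggrecanase, rose from 8.45, 5.25 and 4.87 to 45.0, 45.2 and 38.1 (2.64 ± 0.24, adjusted p = 1.7e-05). Adamts5, which has a single transcript and also cuts versican and aggrecan, rose from 10.4, 11.4 and 12.5 to 24.9, 27.1 and 31.5 (1.21 ± 0.12, adjusted p = 4.2e-05). The groups of these 3 enzymes did not overlap. Adamts1, a versican-cleaving enzyme too, was the member that fell, from 31.8, 40.6 and 41.8 to 24.9, 22.8 and 24.6 (-0.63 ± 0.12, adjusted p = 0.0019), and by the same amount in siKctd10 (-0.63 ± 0.12). Adamts2, a procollagen N-proteinase, rose by 1.33 ± 0.09. Adamts7 and Adamts12, which cut cartilage oligomeric matrix protein, rose by 1.52 ± 0.12 and 1.31 ± 0.16. Adamts6 rose by 0.99 ± 0.09, and Adamts16 and Adamts17 by 1.98 ± 0.31 and 1.95 ± 0.15 from D0 levels below 0.30 TPM. The last exon of Adamts16 had coverage of 11.7, 0.230 and 10.2 in D2 siControl and 0.423, 0.173 and 16.7 in D2 siKctd10. Its other exons were at 0 in D0 siControl and at 2.47, 1.96 and 2.27 in D2 siControl. Adamts10, linked with Adamts6 and Adamts17 to fibrillin microfibrils, was called in siKctd10 cells (0.80 ± 0.21, adjusted p = 0.013) and had adjusted p = 0.16 in siControl.

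ADAMTSL proteins bind fibrillin microfibrils. Adamtsl4 fell in siControl cells from 10.6, 11.5 and 12.9 to 6.58, 7.11 and 6.56 TPM (-0.71 ± 0.15, limma adjusted p = 0.0051). Adamtsl1 rose by 1.03 ± 0.13 but stayed at or below 4.43 TPM. Adamtsl2 was called too. It was listed at 0 in all 6 D0 libraries and at 1.11 to 1.75 TPM in the 6 D2 libraries. Adamtsl2 was thus kept through D2 alone. Adamtsl5 was at 40.0, 41.4 and 35.6 against 34.9, 32.7 and 32.7 TPM in siControl and did not pass (-0.21 ± 0.10, adjusted p = 0.13). Its exons before the last went the other way, from 26.2, 23.7 and 22.1 to 58.1, 51.8 and 51.6, a log2 difference of 1.13 with no overlap, while the last exon fell from 43.9, 47.9 and 37.5 to 0.0979, 0.0841 and 0.227. In siKctd10 cells, where the last exon was nearly absent on both days, Adamtsl5 rose by 1.43 ± 0.10 in TPM and by 1.38 in the other exons.

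Inhibitors of metalloproteinases rose as well, 3 of 4 in each arm. Timp2, which also takes part in the activation of Mmp2, was at 556, 598 and 614 TPM in D0 siControl and 1249, 1200 and 1238 at D2 (1.06 ± 0.06, limma adjusted p = 1.1e-06), and rose by 1.17 ± 0.06 in siKctd10. It held 94.0% of its coverage in the last exon, and its other exons differed by 0.04. Timp3, which binds the matrix and also inhibits ADAM17, rose from 273, 282 and 299 to 377, 405 and 420 (0.49 ± 0.10, adjusted p = 0.0035). Reck, a membrane-anchored inhibitor of MMP, rose from 2.17, 2.14 and 1.98 to 2.99, 3.34 and 4.02 (0.52 ± 0.12, adjusted p = 0.0058). In siKctd10 cells Reck went from 2.80, 2.75 and 2.81 to 7.28, 6.46 and 6.52. Timp1 was listed at 111, 297 and 656 TPM in D0 siControl and 265, 919 and 166 at D2, and at 233, 84.9 and 106 then 200, 260 and 220 in siKctd10. The Timp1 values spread up to 5.91-fold within a group, so no direction can be read.

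Of the plasminogen system, Plat rose from 13.6, 11.7 and 15.6 to 43.3, 43.6 and 61.0 TPM (1.77 ± 0.18, limma adjusted p = 4.2e-05) and by 1.46 ± 0.18 in siKctd10. Plau was at 267, 244 and 284 in D0 siControl and 456, 637 and 538 at D2. These groups did not overlap, but the shared spread, which includes the low D2 siKctd10 library, left an adjusted p of 0.11. Plaur was listed at 31.5, 113 and 26.8 TPM in D0 siControl, 156, 32.5 and 132 in D0 siKctd10, 44.7, 8.91 and 39.0 in D2 siControl and 46.3, 4.17 and 43.6 in D2 siKctd10.

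Serpins held both the largest fall among members and a large rise. Serpinb2, plasminogen activator inhibitor 2 (chr1:107511423-107535478, plus strand), was at 63.7, 64.4 and 98.8 TPM in D0 siControl and 1.32, 2.07 and 0.960 at D2 (-4.96 ± 0.34, limma adjusted p = 3e-06). In siKctd10 it went from 118, 59.4 and 102 to 4.60, 1.72 and 2.23 (-4.63 ± 0.34). Its coverage fell alike in the last exon (-4.87) and the others (-4.80). Serping1, the inhibitor of the proteases of the first complement component, rose from 4.94, 4.69 and 4.35 to 49.8, 64.2 and 67.1 (3.43 ± 0.17, adjusted p = 4.1e-07) and by 3.02 ± 0.17 in siKctd10. Serpinb1a, an inhibitor of neutrophil-type serine proteases, rose from 21.6, 16.4 and 18.0 to 78.0, 63.1 and 61.3 (1.80 ± 0.15). Serpine2, protease nexin 1, an inhibitor of thrombin and plasminogen activators, rose from 5.59, 7.25 and 7.09 to 13.2, 13.7 and 16.1 (1.01 ± 0.15, adjusted p = 0.00057).

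Serpinh1, a collagen chaperone of the endoplasmic reticulum that does not inhibit proteases, rose from 355, 244 and 313 to 426, 442 and 479 TPM in siControl (0.58 ± 0.14, limma adjusted p = 0.0098). In siKctd10 it was at 451, 407 and 492 then 524, 486 and 615 and did not pass. Serpinf1, pigment epithelium-derived factor, is also no protease inhibitor and was at 530, 402 and 535 then 568, 377 and 506 in siControl, without passing. Its siKctd10 values were 444, 444 and 252 at D0 and 579, 597 and 458 at D2.

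Among the 15 clade B serpins, which are mostly intracellular, 3 rose and 3 fell in siControl cells, and the median log2 difference was 0.03. Besides Serpinb1a, those that rose were Serpinb9, an inhibitor of granzyme B (0.45 ± 0.13, limma adjusted p = 0.021), and Serpinb6b (1.82 ± 0.44, adjusted p = 0.0094), whose D2 siKctd10 libraries spread from 2.91 to 14.6 TPM. Serpinb9 rose by 0.55 ± 0.13 in siKctd10 in TPM, its last exon holding 99.0% of the coverage; the remaining exons were at 0 in 5 of those 6 libraries. Those that fell besides Serpinb2 were Serpinb9e and Serpinb9g, never above 1.64 TPM. Serpinb9, Serpinb6 and Serpinb1 genes are families of near-identical neighbours, so that reads shared between copies make their levels uncertain. Serpinb9b, at 109 to 154 TPM in all 12 libraries, passed in neither arm.

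**Figure D3:**
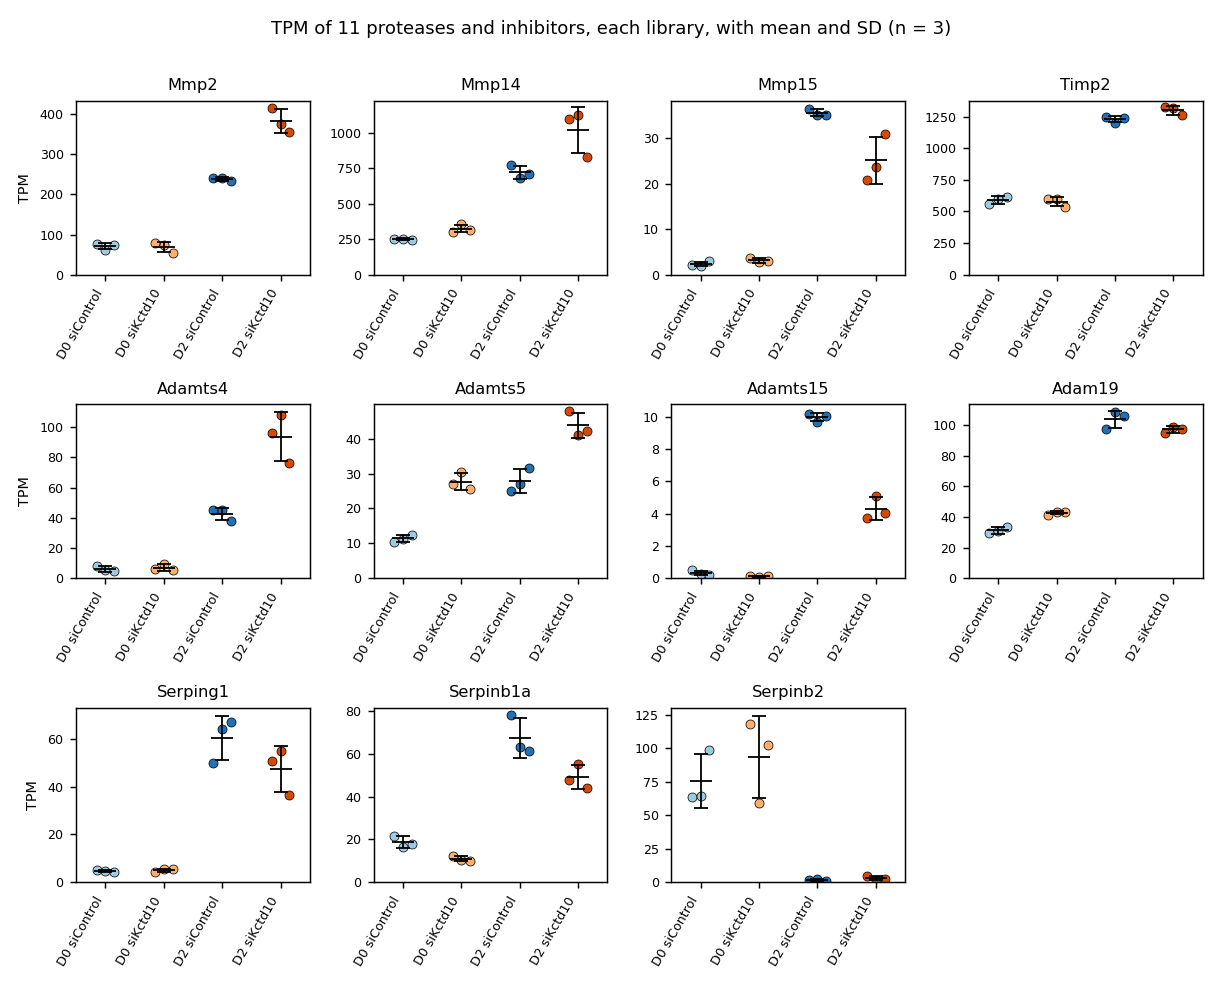
TPM of 11 members by group on linear axes that differ between panels; points are the 3 libraries of a group and bars the mean ± SD. Mmp2 and Adamts4 are highest in D2 siKctd10, whereas Adamts15 reaches 9.69 to 10.2 in D2 siControl and 3.74 to 5.11 in D2 siKctd10.

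Summed over a family, mean levels in siControl were higher at D2 for every family but ADAMTSL. The days overlapped for ADAM (280, 395 and 267 TPM against 375, 426 and 425). They also overlapped for clade B serpins (300, 299 and 332 against 286, 730 and 802). The high clade B sums were those of libraries 2 and 3, in which the last exon of Serpinb6a was covered. In siKctd10 the sums of plasminogen activation (578 to 421 TPM) and clade B serpins (317 to 292) were lower at D2, with overlap. The sums of the other families were higher there, with overlap for ADAM. Secreted MMP went from 162 ± 8.33 to 435 ± 12.7 TPM in siControl (SD, n = 3, exact permutation p = 0.1, the smallest that 3 against 3 can give), a ratio of 2.68. Membrane-type MMP went from 254 ± 4.99 to 759 ± 49.3, and ADAMTS from 139 ± 1.70 to 268 ± 3.15. TIMP and Reck went from 1231 ± 318 to 2084 ± 386, a sum that includes the scattered Timp1. ADAMTSL were at 61.6 ± 1.63 and 54.4 ± 1.41, a sum in which Adamtsl5 has the largest share. In these libraries the 4 inhibitor genes held more TPM than the secreted and membrane-type MMP together on both days.

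**Figure D4:**
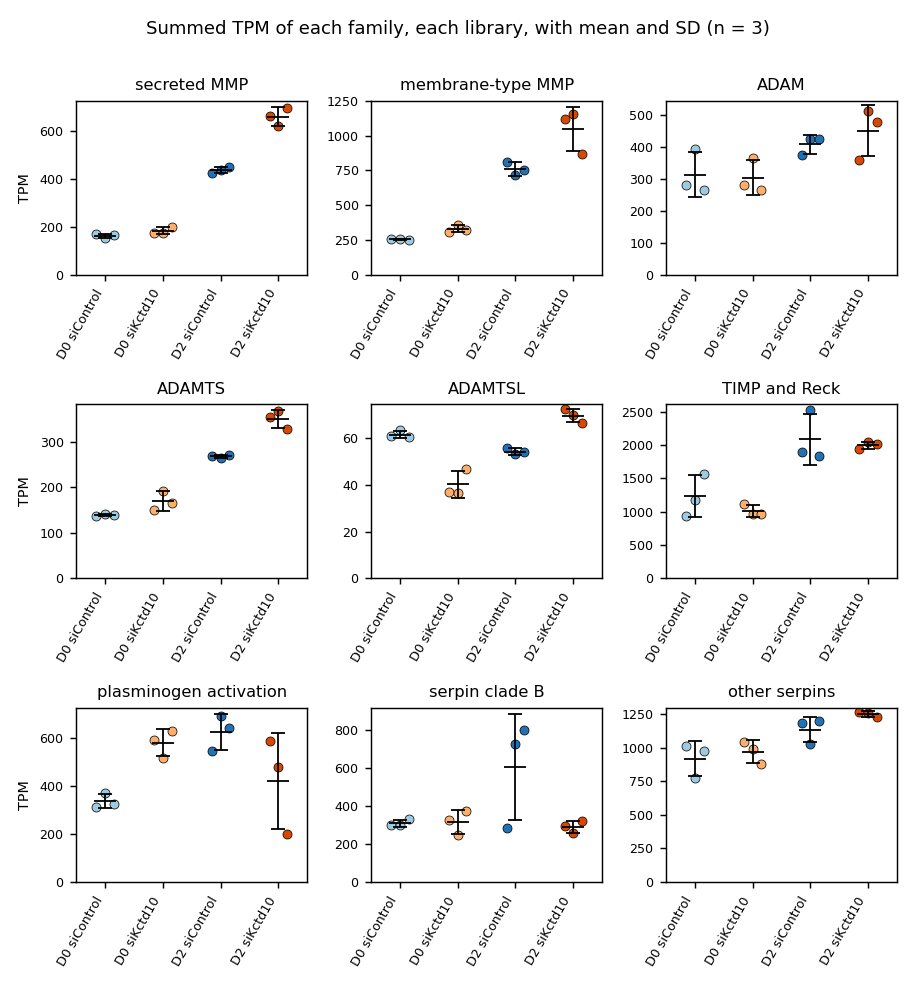
Summed TPM of each family by group on linear axes; points are libraries and bars the mean ± SD over 3 libraries. The sums of secreted MMP, membrane-type MMP and ADAMTS are lowest at D0 and highest in D2 siKctd10, without overlap between D0 and D2.

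The second question of the design was how cells with siKctd10 differed from siControl cells on each day. At D0, 5 members passed, 3 higher and 2 lower, against 2.45% of all genes (1.48% higher, 0.964% lower). At an unadjusted p of 0.05 there were 15 members, and 19 did not overlap (14 higher, 5 lower), against 23.2% of all genes (14.4% higher, 8.78% lower). At D2, 12 members passed, 10 higher and 2 lower, against 4.75% of all genes (2.83% higher, 1.92% lower), with 24 at an unadjusted p of 0.05 and 31 without overlap (24 higher, 7 lower), against 28.4% (18.5% higher, 9.91% lower). The medians were 0.06 at D0 (all genes 0.05) and 0.22 at D2 (0.08). At D2 the members' share was above that of all genes by both counts. The counts and their split by direction were small and moved with single libraries. Leaving out D0 siControl library 1 or 2 or D0 siKctd10 library 2 left 2 calls at D0, and without siKctd10 library 3 there were 3. At D2 the count was 4 (2 higher, 2 lower) without siControl library 2 or siKctd10 library 1, and 5 (2 higher, 3 lower) without siControl library 1, so the excess of higher calls was lost there. It was 7 (5 higher, 2 lower) without siControl library 3 or siKctd10 library 2, and 8 (6 higher, 2 lower) without siKctd10 library 3. Without both siKctd10 libraries numbered 3, the counts were 3 at D0 and 9 at D2. The myocyte marker sum was lower in D2 siKctd10 (2679 to 3162 TPM) than in D2 siControl (3824 to 4168), and its part in the D2 differences was not tested. Acta1 and Des held much of that sum and did not pass at D2 (limma adjusted p = 0.065 and 0.42). Myod1, Myf5, Myog and Mymk were called lower (0.0091, 0.005, 0.016 and 0.012). Myh3, Tnnt3, Cdh15 and Ckm did not pass, and the means of Myh3 and Tnnt3 were not lower. In D0 siKctd10, Acta1 was the only marker of the list to pass, at a mean of 169 TPM against 87.4.

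Adamts5 (chr16:85856173-85901828, minus strand) was the 1 member called higher with siKctd10 on both days. At D0 it was at 10.4, 11.4 and 12.5 TPM in siControl and 26.9, 30.5 and 25.6 in siKctd10, a log2 difference of 1.21 ± 0.12 (limma, adjusted p = 0.0012). At D2 it was at 24.9, 27.1 and 31.5 against 47.9, 41.1 and 42.3 (0.64 ± 0.12, adjusted p = 0.018). The groups did not overlap on either day, and D0 siKctd10 libraries reached the level of D2 siControl. Coverage outside the last exon differed by 1.26 at D0 and 0.51 at D2, and all 3 exons covered at D0 and all 4 at D2 were higher. The D0 call held under each of 17 alternative settings, and the D2 call was lost under 5 of 17. The difference between days was not called (-0.57 ± 0.18, adjusted p = 0.24).

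The other enzymes called at D0 were Adam19, at 29.4, 30.5 and 33.5 TPM in siControl and 41.5, 43.5 and 43.3 in siKctd10 (0.45 ± 0.08, limma adjusted p = 0.02), and Adamts6, at 18.9, 20.3 and 19.96 against 28.01, 27.8 and 26.2 (0.45 ± 0.09, adjusted p = 0.03). All 18 covered exons of Adam19 and all 5 of Adamts6 were higher. Neither was called at D2, where Adam19 values of 97.1, 108 and 105 against 94.5, 98.8 and 97.6 overlapped. These calls were lost under 6 and 9 of 17 settings. Serpinb1a was lower at D0, at 21.6, 16.4 and 18.0 against 12.3, 10.4 and 9.99 (-0.72 ± 0.15, adjusted p = 0.035), and its call was lost under 8 of 17.

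Adamtsl5 (chr10:80339110-80348412, minus strand) had the largest D0 difference in TPM among the called members, and 1 exon carried most of it. Its TPM was 40.0, 41.4 and 35.6 in D0 siControl and 12.6, 12.2 and 12.2 in D0 siKctd10 (-1.58 ± 0.10, limma adjusted p = 5.9e-05), and 34.9, 32.7 and 32.7 against 37.6, 36.0 and 31.4 at D2. The last of its 12 exons, of 1664 bases, had coverage of 43.9, 47.9 and 37.5 in D0 siControl and 0.0534 to 0.342 in the other 9 libraries. Over the 11 other exons D0 siControl had 26.2, 23.7 and 22.1 and D0 siKctd10 had 20.4, 19.9 and 19.7, a log2 difference of -0.25 without overlap. At D2 those exons had 58.1, 51.8 and 51.6 against 58.5, 54.5 and 47.9, which overlapped. Among its covered exons at D0, 9 were lower and 3 higher with siKctd10. The difference between the days was 1.64 ± 0.14 in TPM (adjusted p = 0.0019) and 0.24 over the exons other than the last.

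Plau was higher in D0 siKctd10 without overlap, at 423, 470 and 484 TPM against 267, 244 and 284, and did not pass in the fit over all groups (adjusted p = 0.45). With the 2 D0 groups alone its limma adjusted p was 0.044. That setting called 3 members, 2 of them shared with the 5 of the main fit, and 72 genes in all against 320. At D2 Plau stood at 509, 434 and 114 against 456, 637 and 538, where the lowest value belongs to the library without last-exon coverage. Plat values of 43.3, 43.6 and 61.0 against 29.4, 41.5 and 40.8 at D2 did not overlap and did not pass (adjusted p = 0.28).

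At D2, Mmp2, Mmp14 and Mmp19 were called higher with siKctd10. Mmp2 was at 242, 240 and 233 TPM in siControl and 416, 376 and 357 in siKctd10 (0.68 ± 0.14, limma adjusted p = 0.023), with all 5 covered exons higher. Its D0 values were 76.9, 61.8 and 74.4 against 77.7, 73.6 and 53.5 and overlapped. Mmp14 was at 773, 677 and 710 against 1093, 1125 and 831 (0.49 ± 0.11, adjusted p = 0.042). The last exon, which held 81.6% of the coverage, differed by 0.49 without overlap. All 4 exons covered in every library were higher, 3 of them without overlap. The other exons together had coverage of 397, 245 and 311 against 468, 464 and 134, a difference of -0.02 in which siKctd10 library 3 was the lowest. At D0 Mmp14 did not pass, though its last exon was higher without overlap, at 432, 472 and 422 against 359, 358 and 337. Its other exons differed there by -0.15, with overlap. A difference between the days was not called for Mmp14, so its D2 call is not shown to belong to D2. Mmp19, a basement membrane protease, was at 7.32, 7.24 and 10.1 against 30.2, 26.2 and 38.9 (1.82 ± 0.35, adjusted p = 0.017). Its last exon had coverage of 22.6 and 22.2 in siKctd10 libraries 1 and 3 and 0 in library 2, and at most 0.0442 in siControl, while its other exons had 16.1, 15.3 and 21.5 against 25.3, 21.8 and 37.9 (0.63, no overlap). The calls for Mmp2, Mmp14 and Mmp19 were lost under 5, 9 and 6 of 17 settings. Timp2, the partner of Mmp14, had D2 values of 1249, 1200 and 1238 against 1322, 1318 and 1259 and did not pass (0.08 ± 0.06, adjusted p = 0.54).

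Reck (chr4:43875530-43944806, plus strand), an inhibitor of both Mmp2 and Mmp14, was higher at D2 too, at 2.99, 3.34 and 4.02 TPM against 7.28, 6.46 and 6.52 (0.80 ± 0.12, limma adjusted p = 0.005). The groups did not overlap, and the call was lost under 1 of 16 settings. The difference was 1.104 over exons before the last and 0.27, with overlap, in the last exon. Timp3 was at 377, 405 and 420 against 406, 457 and 527 and did not pass (adjusted p = 0.31).

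At D2, 5 ADAMTS genes were called. Adamts4 was at 45.0, 45.2 and 38.1 TPM in siControl and 96.1, 108 and 76.3 in siKctd10 (1.102 ± 0.24, limma adjusted p = 0.029), against 8.45, 5.25 and 4.87 and 6.38, 9.38 and 5.16 at D0, which overlapped; the D2 call was lost under 5 of 17 settings. Adamts12 was at 3.86, 4.89 and 5.04 against 8.16, 8.67 and 7.43 (0.70 ± 0.16, adjusted p = 0.033) and Adamts17 at 2.57, 3.23 and 4.18 against 8.44, 7.31 and 6.42 (0.97 ± 0.15, adjusted p = 0.0072). The call for Adamts12 was lost under 11 of 16 settings and that for Adamts17 under 1 of 16. Adamts15 (chr9:30899155-30922452, minus strand) went the other way, at 10.2, 9.69 and 10.1 against 3.74, 5.11 and 4.06 (-1.06 ± 0.13, adjusted p = 0.0024). It was lower in all 5 covered exons and called under each of 16 settings. Thus Adamts4, Adamts5 and Adamts15, which share proteoglycan substrates, did not move together: each was higher at D2 than at D0, and siKctd10 levels were above siControl for the first pair and below it for Adamts15. Adamts1 was at 24.9, 22.8 and 24.6 against 31.7, 32.5 and 35.8 without overlap and did not pass (adjusted p = 0.06).

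**Figure D5:**
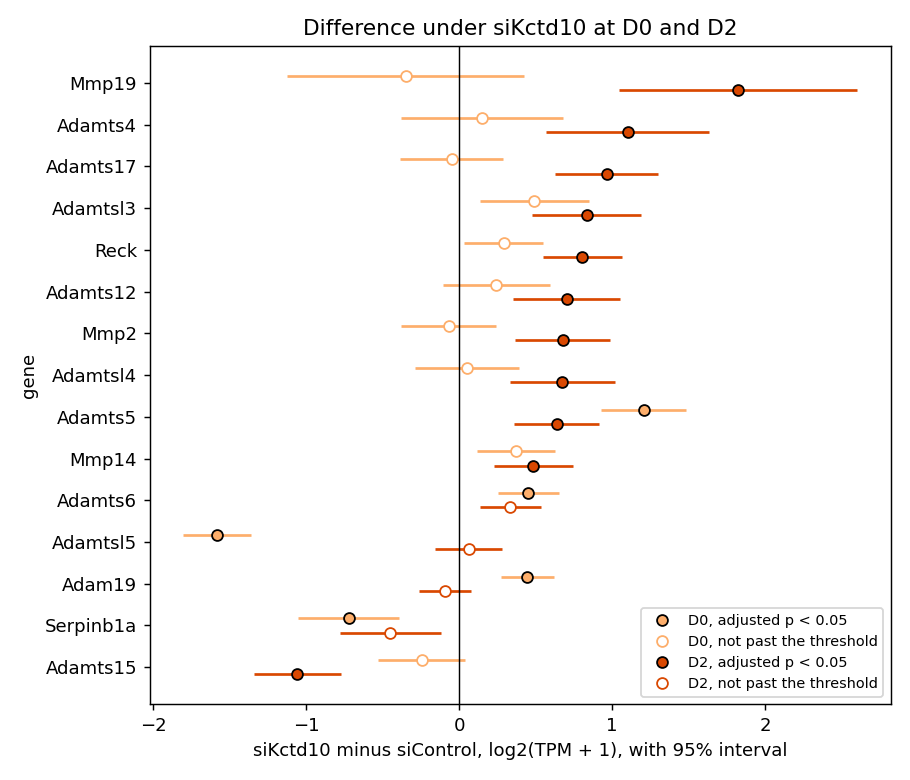
Log2 difference between siKctd10 and siControl libraries on each day for the members named here that were called on either, with bars for the 95% interval from limma (n = 3 libraries per group) and filled points for adjusted p under 0.05. Adamts5 lies above 0 on both days, and Adamts15 lies below 0 at D2.

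Adamtsl3 was at 9.60, 9.01 and 10.8 TPM in D2 siControl and 19.3, 16.2 and 19.4 in D2 siKctd10 (0.84 ± 0.16, limma adjusted p = 0.017), a call lost under 5 of 17 settings. Adamtsl4, which had fallen in siControl cells, was at 6.58, 7.11 and 6.56 against 11.4, 12.5 and 10.3 (0.67 ± 0.15, adjusted p = 0.036), a call lost under 9 of 17, among them each omission of a single D2 library. Serpine2 was at 13.2, 13.7 and 16.1 against 19.7, 19.5 and 22.7 without overlap and did not pass (adjusted p = 0.1). Among clade B serpins 0 of 15 passed at D2.

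The test of whether the siKctd10 difference changed between days called 2 members, 1 with a positive and 1 with a negative term, against 0.742% of all genes (0.375% and 0.367%), with 16 at an unadjusted p of 0.05. The positive one was Adamtsl5, with the exon pattern given above. For Mmp2 (0.75 ± 0.20, adjusted p = 0.16), Mmp19 (2.17 ± 0.49, adjusted p = 0.096), Adamts17 (1.01 ± 0.21, adjusted p = 0.076) and Adamts15 (-0.81 ± 0.18, adjusted p = 0.093) a difference between D0 and D2 was not called, so their calls on 1 day are not shown to belong to that day. Adam10 at D2 (211, 254 and 249 against 196, 187 and 156) and Adam12 at D0 (4.42, 6.41 and 5.80 against 9.62, 11.1 and 9.96) did not overlap and did not pass, at adjusted p = 0.065 and 0.099.

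Exon coverage was in the called direction for most calls. It comes from the same reads as the TPM, so it gives no separate support for a call. For some members, such as Plat and Serpinb1a, only 1 exon was covered in every library. The same counts were not made for members that were not called. Of called members with an exon covered in every library of the comparison, every such exon moved in the called direction for 28 of 29 with differentiation in siControl, 25 of 28 in siKctd10, 4 of 5 with siKctd10 at D0 and 9 of 12 at D2. Over the exons other than the last, groups did not overlap in that direction for 22 of 32, 25 of 31, 4 of 5 and 10 of 12 called members.

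Genes listed for their place around these proteases were counted in the same fit. Among all genes, 21.4% rose and 14% fell with differentiation in siControl, and 23.1% and 13.3% in siKctd10. Of 21 matrix substrates 14 were measured, and 11 rose and 0 fell with differentiation in siControl (median 1.26), among them Dcn, the proteoglycan decorin (5.19 ± 0.11), Lama2 (2.14), Fmod (1.97), Fbn1, fibrillin-1 (1.88), Col3a1 (1.52), Fn1, fibronectin (1.51), and Col1a1 (1.43). In siKctd10 11 rose and 2 fell, with Dcn at 4.79, Fmod at 1.86, Fn1 at 1.82, Fbn1 at 1.73, Lama2 at 1.71, Col1a1 at 1.58 and Col3a1 at 1.39. Of 12 other secreted or surface proteases measured, 4 rose and 1 fell in siControl and 8 rose and 2 fell in siKctd10. Htra3, a secreted serine protease, rose by 2.55 ± 0.20 and 3.20 ± 0.20. Of 8 regulators of Adam10 and Adam17, 4 rose and 0 fell in each arm, and 0 passed with siKctd10 on either day. Of 5 proprotein convertases measured, which cut the propeptides of many metalloproteinases, 1 rose and 1 fell in siControl. Of 24 other protease inhibitors and cofactors 12 were measured, and 3 rose and 3 fell in each arm (medians 0.04 in siControl and 0.07 in siKctd10).

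Clearance receptors and other surface proteins (18 of 20 measured) had 4 higher and 0 lower with siKctd10 at D0, against 1.48% and 0.964% of all genes. The median log2 difference of the list was 0.036, against 0.045 over all genes. The 4 called were Lrp1, an endocytic receptor for protease-inhibitor complexes, Thbd, thrombomodulin, Igf2r and F2r, a thrombin receptor. Lrp1 was at 126, 120 and 129 TPM in siControl and 239, 237 and 204 in siKctd10 (0.85 ± 0.11, limma adjusted p = 0.0043) and was higher at D2 as well (0.50 ± 0.11, adjusted p = 0.03). Thbd, Igf2r and F2r differed by 0.89, 0.70 and 0.50. Of the 12 other protease inhibitors and cofactors measured, 1 was higher and 0 lower at D0, and 2 were higher and 0 lower at D2. Among all genes 2.83% were higher and 1.92% lower at D2. Thbs1, thrombospondin 1, a ligand of Lrp1, was at 313, 328 and 526 against 1250, 1068 and 1683 at D0 (1.79 ± 0.28, adjusted p = 0.014) and differed by 1.46 ± 0.28 at D2. Col4a2, a basement membrane collagen chain, was higher on both days (0.90 and 0.70). At D2 Spock2 was higher by 0.84. Dcn was lower, at 561, 584 and 553 against 387, 342 and 330 (-0.68 ± 0.11, adjusted p = 0.0075), and so was Cd44, the hyaluronan receptor (-0.51 ± 0.10).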

How the data were processed

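Poly(A) RNA from C2C12 cells was sequenced by the authors in 12 libraries. Per the submitters' processing notes, reads were aligned to mm10 with HISAT and processed with SAMtools, StringTie 1.1.3 and DESeq2; per the file headers StringTie was 1.3.3b, run on annotated transcripts alone, and which version made the values was not settled. The deposited values are TPM and coverage per transcript and coverage per exon; strandedness is not given in the sources used here, so overlapping and antisense genes cannot be separated. Deposited transcripts carry other identifiers, so 88.0% of 63759 were matched to GENCODE vM21 genes by coordinates, 42608 by identical introns and 13473 by at least 50% exon overlap; 3.82 to 4.63% of TPM was unmatched. TPM was summed per gene, genes at 1 TPM or more in 3 libraries were kept, and log2(TPM + 1) was fitted with limma 3.58.1 (R 4.3.3; 4 group means, 8 residual degrees of freedom, trend and robust settings), with Benjamini-Hochberg adjustment over all 13076 genes. Fold changes are thus on the log2(TPM + 1) scale and understate low genes. The fit was run on simulated data with independent noise. These held no switching last exons, reads shared between transcripts or correlated libraries, so the run does not bear on those limits. Read pairs per library were inferred from coverage and a fragment length of 202 bases. Exon coverage was taken from each gene's main transcript and compared as log2(coverage + 1), an analysis added after the data had been seen. Members named with values were those past the threshold with a group mean of 5 TPM or more, plus the main enzymes and inhibitors of each family whether they passed or not; related genes were the up to 8 with the largest change in each comparison. Results of 1 member and 1 related gene are not reported here, though they remain in the counts and sums. Members and lists were chosen with earlier results of these data known. Alternatives were other pseudocounts, filters, scalings and matching rules, voom, a replicate block and leaving out libraries.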

Additional observations from a re-analysis of the deposited data

Results flagged for a closer look

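The siKctd10 difference of Adamtsl5 changed between D0 and D2 by the interaction term of the limma fit with Benjamini-Hochberg adjustment. The term was 1.64 on the log2(TPM + 1) scale, and no alternative in which it could be fitted ended the call. Over the exons other than its last, the same quantity was 0.24, so the value rests on the last exon, which was covered in the 3 D0 siControl libraries alone.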

How the results depend on the processing

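Precision is limited by 3 libraries per group, by estimates that rest on last exons, and by transcripts that share bases. Members called with differentiation numbered 30 to 34 in siControl and 31 to 33 in siKctd10 when single libraries were left out. With siKctd10 at D0 (5 called), 3 were called using only the D0 groups, 3 with identical introns only, 3 without both siKctd10 libraries numbered 3, and 2 to 4 when leaving out single libraries. At D2 (12 called) 4 were called using only the D2 groups and 4 to 8 when leaving out single libraries. The interaction (2 called) gave 4 with a pseudocount of 5, 1 with identical introns only, and 1 to 2 without single libraries. Deviations of same-numbered libraries correlated at 0.20 for the siKctd10 libraries numbered 3 on the 2 days and at -0.02 to 0.09 for all other pairs. D0 siKctd10 library 3 correlated at most at -0.06 with D2 siKctd10 libraries of other numbers. Deviations from a group mean cancel over its libraries, so this negative value partly follows from the 0.20 and is no separate observation. The labels do not say that a number marks a shared culture or day, so the main fit did not pair the samples. Whether same-numbered libraries share one cannot be told. With the replicate block 32, 33, 7, 10 and 1 members were called in the 5 comparisons. The split of higher to lower calls moved at D0 from 3 to 2 to 3 to 3 (median-ratio scaling) or 2 to 3 (quantile, voom), at D2 from 10 to 2 to 8 to 3 (median-ratio, quantile) and to 2 to 3 without D2 siControl library 1, and in siKctd10 differentiation from 28 to 3 to 27 to 8 (quantile). The median of all genes in siKctd10 differentiation was 0.12, 0.0024 with median-ratio scaling and -0.021 with quantile normalization, and in siControl 0.09, 0.0046 and -0.033. Among results past the threshold, 1130 values under planned or added refits kept their call, 106 of 19 results lost it and 0 changed direction. Coverage of the exons other than the last, on its own log2(coverage + 1) scale, was set beside these results separately. There 31 differences stayed within about the spread between libraries of the main value, 41 moved further and 2 reversed. The cause of the changes was not tested.

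Some directions turned. The Adam19 interaction was 0.32 with identical introns only and the Adamts15 interaction 0.17 with voom; neither had been called. Over exons other than the last, Serpinb9 differentiation in siKctd10 was -0.50, from coverage of 1.85 in 1 D0 library and 0 in the other 5, and Mmp14 with siKctd10 at D2 was -0.017, with siKctd10 library 3 at 134 against 464 and 468 in the others. Log2 ratios of summed TPM that changed sign were those of clade B serpins in siKctd10 differentiation (0.37 with identical introns only, 0.015 without D0 siKctd10 library 3, range without single libraries -0.26 to 0.015), ADAM at D0 (0.15, 0.0050 and 0.045 when leaving out D0 siControl library 2 or D0 siKctd10 library 1 or 3, range -0.20 to 0.15), ADAMTSL at D0 (-0.61 as reported, 0.31 with identical introns only), clade B serpins at D0 (-0.023 with median-ratio scaling, -0.072 with identical introns only, -0.00023 and -0.10 without D0 siKctd10 library 1 or 3, range -0.10 to 0.18), other serpins at D0 (-0.035 without D0 siControl library 2) and TIMP and Reck at D2 (0.10 without D2 siControl library 2, range -0.15 to 0.10).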
